A study of Homo sapiens with 24 samples.

Results

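The 9 genes described here act in the presentation of peptides on MHC class I: TAP1, TAP2, TAPBP, PSMB8, PSMB9, HLA-B, HLA-C, B2M and NLRC5. They were taken as the rows of the count table whose Ensembl identifiers map to these symbols, 9 of the 20345 genes in the table, of which 19086 were protein-coding. The set was chosen from earlier results of these same libraries, in which TAP1 was seen to be lower after LSM14A knockdown. The difference of TAP1 between the siRNAs is therefore given as a description with no test, and tests are given for the other 8 genes and for the response of TAP1 to hydroxyurea.

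MHC class I molecules carry peptides of intracellular proteins to the cell surface, where cytotoxic T cells read them. The proteasome, with the immunoproteasome subunits PSMB8 and PSMB9 in its inducible form, cuts proteins into peptides, the TAP1 and TAP2 heterodimer pumps these into the endoplasmic reticulum, and tapasin (TAPBP) holds the transporter next to empty class I molecules built from a heavy chain such as HLA-B or HLA-C and the light chain B2M. NLRC5 is a transactivator of class I genes, and interferons raise most genes of this pathway together. Loss of class I presentation is a known route by which melanoma escapes T cells.

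The libraries came, per the labels, from A2058, an established human melanoma cell line, transfected with either a scrambled siRNA (siCTRL) or siRNA against LSM14A (siLSM14A, described as a pool in part of the study's methods). The study's methods also name A2058 for the polysome work, while the legend of its translation efficiency plot names another melanoma line, A375. LSM14A is an RNA-binding protein of processing bodies and the human relative of yeast Scd6. Cultures with either siRNA were left untreated (NT) or exposed for 2 h to 10 mM hydroxyurea (HU), which slows DNA replication by depleting deoxynucleotides. The 4 conditions (siCTRL NT, siCTRL HU, siLSM14A NT and siLSM14A HU) had 3 replicates each. Each replicate had a library of total poly(A) RNA and one of RNA from heavy polysomes, mRNAs loaded with many ribosomes, so that 24 libraries were available. A replicate number of a condition, with its 2 libraries, is taken here as a culture, which gives 12 cultures. The labels do not state this pairing. The study asked how LSM14A shapes translation under genotoxic stress, and the polysomal over total ratio, called translation efficiency (TE), was its measure of this.

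The libraries held 24789280 to 44897501 counts. No 2 replicates were the same within sampling noise, since the chi-square per gene was 6.28 or higher in all 24 replicate pairs. It was 6.28 to 20.8 between total RNA replicates and 38.9 to 126.7 between polysomal replicates, which thus spread more. The labels do not say that replicates came from separate cultures, and p-values then measure the spread between these samples only. LSM14A stood at 80.9 to 91.0 CPM (counts scaled to the size of each library) in total RNA of the siCTRL cultures and at 6.14 to 8.31 CPM with siLSM14A, a log2 change of -3.49 ± 0.0750 (SE) in NT and -3.67 ± 0.0871 in HU. The melanocyte-lineage genes SOX10 (550 to 666 CPM), PMEL (306 to 381 CPM) and MITF (115 to 131 CPM) were expressed in every total RNA library. Of the leukocyte markers, NKG7 was at 0 counts, PTPRC reached 0.217 CPM at most, and CD74, which this line expresses, stood at 59.0 to 94.1 CPM.

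TAP1 lies on chromosome 6 in the MHC class II region, at chr6:32812986-32821593 on the minus strand (hg19, GENCODE), with the other 3 genes of its cluster beside it: TAP2 at chr6:32789610-32806516 (minus), PSMB8 at chr6:32808494-32812456 (minus) and PSMB9 at chr6:32811913-32827628 (plus). The gene span of PSMB9 takes in all its transcripts and runs across TAP1. By the representative transcript of each gene, used for the starts and distances below, PSMB9 starts 0.5 kb from TAP1 and the pair are transcribed away from each other. RefSeq lists 2 promoter windows for TAP1 and 1 for PSMB9. The PSMB9 window and the TAP1 window next to it (RefSeq, GRCh38.p14, 300 bases around the start) are shown because TAP1 and PSMB9 behaved differently although their windows, chr6:32853655-32853954 for this TAP1 window (minus strand) and chr6:32853942-32854241 for PSMB9 (plus strand), overlap by 13 bases. Capitals mark matches on either strand to GGGCGG, a GC box, and to an interferon-stimulated response element (ISRE), searched as GAAA, any 2 bases and GAAA again.
TAP1: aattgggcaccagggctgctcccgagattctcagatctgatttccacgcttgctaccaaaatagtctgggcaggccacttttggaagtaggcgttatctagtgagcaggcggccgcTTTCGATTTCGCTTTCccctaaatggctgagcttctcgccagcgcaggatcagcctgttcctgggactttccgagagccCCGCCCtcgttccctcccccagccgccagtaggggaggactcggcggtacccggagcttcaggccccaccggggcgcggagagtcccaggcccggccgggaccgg
PSMB9: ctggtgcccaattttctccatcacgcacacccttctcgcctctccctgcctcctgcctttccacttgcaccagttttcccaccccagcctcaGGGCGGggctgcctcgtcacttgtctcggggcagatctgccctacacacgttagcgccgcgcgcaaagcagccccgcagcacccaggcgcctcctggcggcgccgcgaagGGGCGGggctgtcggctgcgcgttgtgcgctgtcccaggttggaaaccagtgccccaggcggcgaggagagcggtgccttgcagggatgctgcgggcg
The TAP1 window shown held 1 GC box and 2 ISRE matches that overlap each other, and the PSMB9 window held 2 GC boxes and no ISRE match. The second TAP1 window, chr6:32852712-32853011, does not overlap that of PSMB9 and held 1 GC box, no ISRE match and 1 match to TTCNNNGAA, the core of a gamma-activated site. Of all 35116 promoter windows of that length, 45% held the GC box letters and 3.57% the ISRE letters. Among the 10 windows that RefSeq lists for 8 of the genes, 8 held a GC box and 5 an ISRE match, while 5 held CCAAT (34.6% of all windows) and 2 held TTCNNNGAA (7.66% of all windows). These matches are letters in a window and no evidence of binding.

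In total RNA, TAP1 was lower with siLSM14A in each of the 6 cultures than in any of the 6 siCTRL cultures. Without HU it measured 29.4, 28.1 and 30.5 CPM with siCTRL (mean 29.3 ± 1.19 SD, n = 3) and 9.97, 12.1 and 10.6 CPM with siLSM14A (10.9 ± 1.11). With HU it measured 32.4, 28.9 and 29.8 CPM with siCTRL (30.4 ± 1.84) and 11.8, 12.6 and 13.1 CPM with siLSM14A (12.5 ± 0.657). The groups were far apart relative to their spread. The fitted log2 change was -1.43 ± 0.0841 (SE) in NT, a 2.69-fold lower level, and -1.29 ± 0.0774 in HU, 2.44-fold lower. In NT only 4 of the 12544 genes tested had a more negative log2 change than TAP1, and in HU 2 of 12475. CPM are relative to the scaled size of each library, so that fewer cells carrying a transcript and less of it per cell cannot be told apart.

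Heavy polysomal RNA of TAP1 showed the same order. The siCTRL cultures had 66.2, 74.5 and 46.8 CPM in NT and 69.4, 70.2 and 61.0 CPM in HU, and the siLSM14A cultures 17.5, 22.4 and 25.4 CPM in NT and 20.4, 29.5 and 20.1 CPM in HU. The lowest siCTRL library was above the highest siLSM14A library in both treatments. The log2 change was -1.52 ± 0.219 (SE) in NT and -1.52 ± 0.174 in HU, 2.87-fold and 2.86-fold lower, with 6 of 12342 and 3 of 12256 genes more negative than TAP1.

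The polysomal over total ratio of TAP1, in contrast, overlapped between the siRNAs. Each library is scaled on its own, so TE is relative to the average mRNA and is no share of the transcripts. Log2 TE was 1.17, 1.40 and 0.62 in siCTRL NT and 0.81, 0.89 and 1.27 in siLSM14A NT. In HU it was 1.10, 1.28 and 1.03 with siCTRL and 0.79, 1.22 and 0.62 with siLSM14A. The log2 difference of TE was -0.09 ± 0.247 (SE) in NT and -0.23 ± 0.191 in HU. An interval of 2 SE to either side ran from -0.59 to 0.40 in NT and from -0.61 to 0.15 in HU. The lower polysomal level of TAP1 thus went with its lower total level, while a change of TE within these bounds is not excluded.

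**Figure D1:**
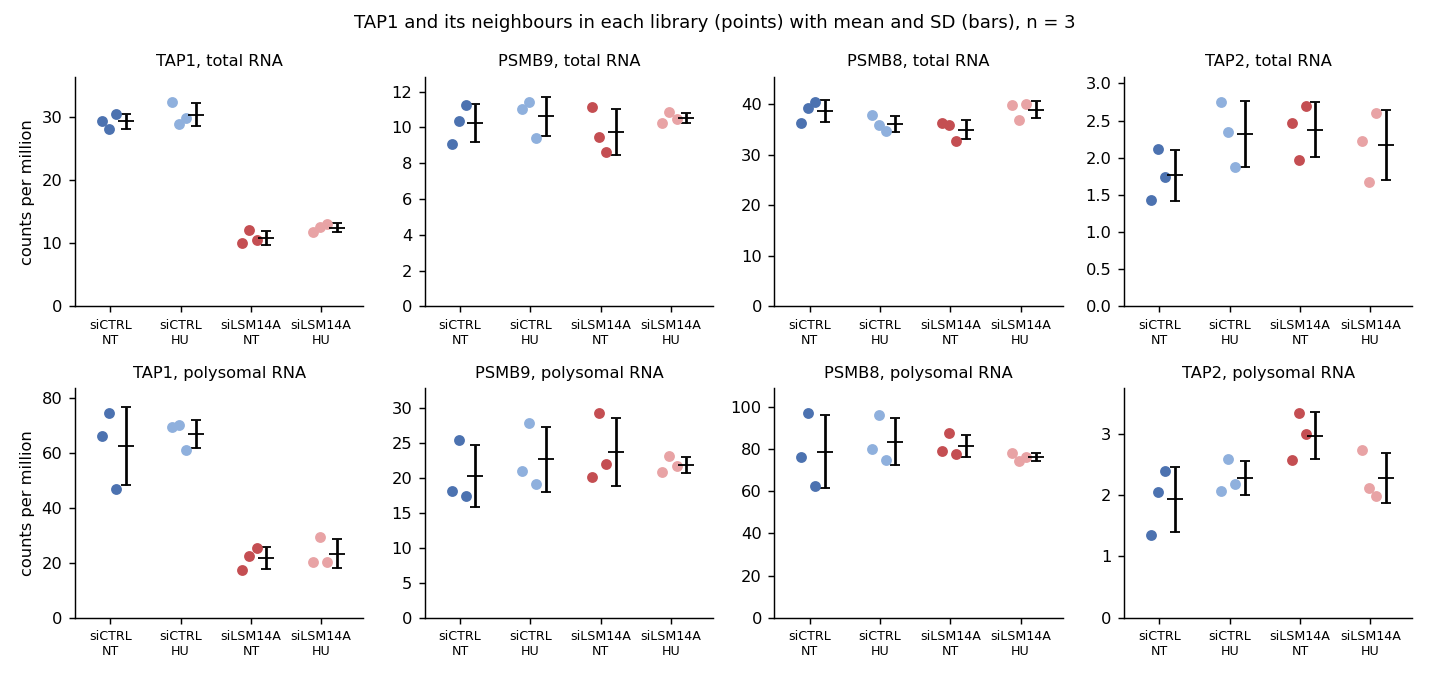
CPM (y axes, from 0) of TAP1, PSMB9, PSMB8 and TAP2 in total (upper row) and polysomal RNA (lower row), with 1 point per library, the 4 conditions on the x axes, and bars for the mean and SD of 3 replicates. In total RNA the 6 siLSM14A points of TAP1 lie between 9.97 and 13.1 CPM and the 6 siCTRL points between 28.1 and 32.4 CPM, while the points of the other 3 genes overlap between siRNAs in most panels.

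The neighbours of TAP1 did not follow it. PSMB9, the immunoproteasome subunit that starts beside TAP1, measured 9.09, 10.4 and 11.3 CPM of total RNA in siCTRL NT and 11.1, 9.49 and 8.60 CPM in siLSM14A NT. With HU it measured 11, 11.4 and 9.39 CPM with siCTRL and 10.3, 10.8 and 10.5 CPM with siLSM14A. The groups overlapped in both treatments. Its log2 change was -0.08 ± 0.119 (SE, edgeR quasi-likelihood test, adjusted p = 0.855) in NT and -0.02 ± 0.0981 (edgeR, adjusted p = 0.987) in HU, and an interval of 2 SE to either side reached no lower than -0.32 in NT and -0.22 in HU, well short of the change of TAP1. In polysomal RNA the log2 change of PSMB9 was 0.22 ± 0.212 in NT and -0.04 ± 0.176 in HU.

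PSMB8, the other immunoproteasome subunit of the cluster, measured 36.3, 39.2 and 40.5 CPM in siCTRL NT and 36.3, 35.8 and 32.8 CPM in siLSM14A NT. In HU it measured 37.8, 35.8 and 34.8 CPM with siCTRL and 39.8, 37 and 40 CPM with siLSM14A. The groups touched in NT and overlapped in HU. The log2 change was -0.15 ± 0.0662 (SE, edgeR, unadjusted p = 0.0478, adjusted p = 0.456) in NT and 0.10 ± 0.0631 (edgeR, adjusted p = 0.735) in HU, and the interaction of siLSM14A and HU was 0.25 (edgeR, unadjusted p = 0.0137, adjusted p = 0.9995). Polysomal PSMB8 spanned 62.6 to 97.0 CPM over the 12 libraries, with log2 changes of 0.05 ± 0.177 in NT and -0.13 ± 0.141 in HU.

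TAP2, the partner of TAP1 in the transporter, was the least abundant of the 9 genes, with 40 to 124 counts per total RNA library. It measured 1.43, 2.12 and 1.74 CPM in siCTRL NT and 2.46, 1.97 and 2.69 CPM in siLSM14A NT, and in HU 2.75, 2.34 and 1.87 CPM with siCTRL and 2.23, 1.68 and 2.6 CPM with siLSM14A. The point estimate in NT lay above 0, opposite to TAP1, and the groups overlapped. The log2 change was 0.41 ± 0.200 (SE, edgeR, adjusted p = 0.507) in NT and -0.08 ± 0.203 (edgeR, adjusted p = 0.968) in HU. In polysomal RNA of NT cells the groups did not overlap, with 1.36, 2.05 and 2.40 CPM against 2.57, 3.34 and 3.0 CPM, a log2 change of 0.62 ± 0.280 (edgeR, unadjusted p = 0.0505, adjusted p = 0.9998). In HU it was 0.01 ± 0.247. Only 80.5% of the exonic bases of TAP2 belong to it alone on its strand, and reads of the rest may be shared.

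The ratio of TAP1 to each neighbour within a library put this side by side. TAP1 over PSMB9 in total RNA was 2.71 to 3.22 in siCTRL NT, 2.53 to 3.17 in siCTRL HU, 0.897 to 1.28 in siLSM14A NT and 1.15 to 1.25 in siLSM14A HU. TAP1 over PSMB8 was 0.718 to 0.810 and 0.807 to 0.858 with siCTRL (NT, HU), and 0.275 to 0.338 and 0.296 to 0.341 with siLSM14A. TAP1 over TAP2 was 13.2 to 20.3 and 11.7 to 15.9 with siCTRL, and 3.92 to 6.12 and 5.01 to 7.47 with siLSM14A. No siLSM14A library reached the lowest siCTRL ratio for any of these 3 genes in total RNA. The mean log2 ratio to PSMB9 differed by -1.36 in NT and -1.27 in HU in total RNA and by -1.74 and -1.51 in polysomal RNA. Against PSMB8 the differences were -1.29 and -1.39 in total and -1.58 and -1.42 in polysomal RNA, and against TAP2 -1.86, -1.18, -2.16 and -1.53 in the same order. These ratios carry no test, since TAP1 was chosen for its level.

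Within 150 kb of TAP1 the annotation placed 11 other protein-coding genes, of which 6 had enough counts to be tested in total RNA. Beside TAP2, PSMB8 and PSMB9 these were HLA-DMB and HLA-DMA, which load peptides on class II molecules, and BRD2, a chromatin reader. HLA-DMB, 87.3 kb from TAP1, had log2 changes of 0.11 in NT and 0.48 in HU, HLA-DMA, 99.4 kb away, 0.16 and 0.30, and BRD2, 114.9 kb away, 0.04 in both. None of the 6 passed an adjusted p of 0.05 in edgeR in either treatment, where 0.566% of all genes did in NT and 0.802% in HU. At an unadjusted p of 0.05 there was 1 of the 6 in NT (PSMB8) and 2 in HU (HLA-DMB and HLA-DMA), and DESeq2 called 0 in both, where 10.8% and 8.54% of all genes were at an unadjusted p of 0.05. Exons of other genes lie opposite 14.2% of the exonic bases of TAP1, and the strand setting of the counting is not given in the sources used here.

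**Figure D2:**
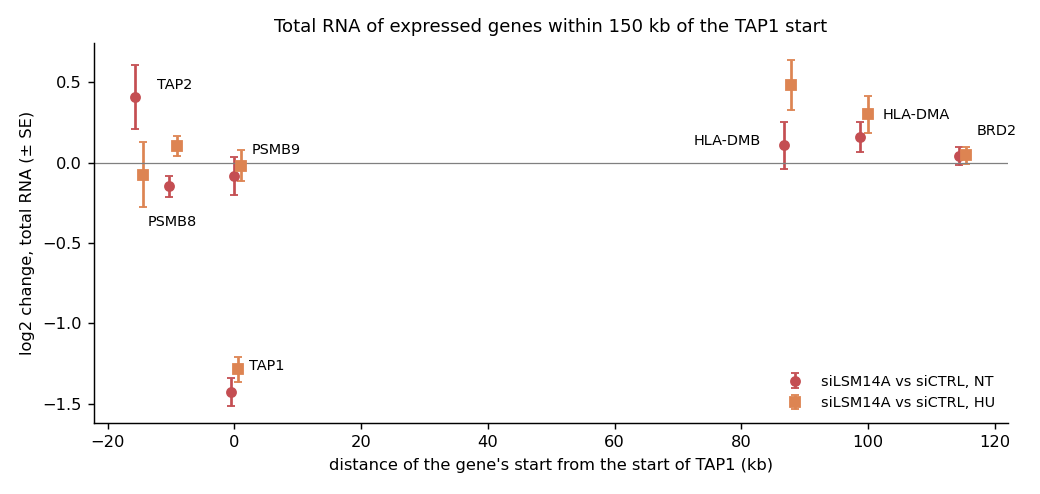
Log2 change of total RNA with siLSM14A (y axis, points with SE) of the expressed genes within 150 kb of TAP1, by the distance of their start from the start of TAP1 in kb (x axis), for NT (circles) and HU (squares, offset slightly). TAP1 lies at -1.43 and -1.29 and the other 6 genes between -0.15 and 0.48.

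Among the remaining members, HLA-B was the only one to pass the threshold. It measured 25.6, 24.2 and 24.8 CPM of total RNA in siCTRL NT, 23.2, 21.7 and 23.4 CPM in siCTRL HU, 27.4, 25.8 and 25.9 CPM in siLSM14A NT and 29.6, 28.7 and 28.4 CPM in siLSM14A HU. The siLSM14A cultures were above the siCTRL cultures in both treatments, narrowly in NT. The log2 change was 0.08 ± 0.0619 (SE, edgeR, adjusted p = 0.689) in NT and 0.34 ± 0.0666 (edgeR, adjusted p = 0.0396) in HU, with an interaction of 0.25 (edgeR, unadjusted p = 0.00883, adjusted p = 0.9995). Over the other fits that kept all libraries, the HU value was 0.31 to 0.34 with adjusted p from 3.92e-05 to 0.0404, the lowest in the fit with the replicate number as a block. Leaving out any 1 library ended the call (0.30 to 0.36, adjusted p 0.0587 to 0.218). Polysomal HLA-B was not called in HU (0.06 ± 0.148, edgeR, adjusted p = 0.888). Its interval of 2 SE to either side, -0.24 to 0.35, took in the change of total RNA. The TE difference in HU was -0.28 ± 0.151 (edgeR, unadjusted p = 0.0840, adjusted p = 0.778), so a difference between the fractions was not shown. HLA-B is polymorphic and has close paralogs, and 69.3% of its exonic bases belong to it alone, so its counts depend on how reads were shared among class I genes.

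The other 4 members lay close to 0 in total RNA. HLA-C, the second heavy chain of the set, ranged from 233 to 282 CPM over the 12 total RNA libraries (log2 change -0.02 ± 0.0635 in NT and 0.06 ± 0.0646 in HU). B2M, the light chain of every class I molecule, ranged from 558 to 634 CPM, with 0.00 ± 0.0528 in NT and -0.02 ± 0.0575 in HU. TAPBP, tapasin, ranged from 60.2 to 76.9 CPM (-0.09 ± 0.0730 and -0.01 ± 0.0727). NLRC5, the class I transactivator, ranged from 9.96 to 13.5 CPM, with 0.00 ± 0.0901 and 0.02 ± 0.122. For each of these 4 genes the siRNA groups overlapped in both treatments, and adjusted p in edgeR was 0.739 or higher. In polysomal RNA of NT cells TAPBP (-0.38 ± 0.236) and NLRC5 (-0.31 ± 0.211) had the lowest point estimates after TAP1, with overlapping groups and an adjusted p of 0.9998 in edgeR for both.

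Counted together, 0 of the 8 members other than TAP1 passed an adjusted p of 0.05 in total RNA of NT cells in edgeR (1 at an unadjusted p of 0.05, 0 in DESeq2), where 0.566% of all genes tested did, and 1 of 8, HLA-B, passed in HU, where 0.802% of all genes did. With the replicate block the HU comparison called 855 genes in place of 100, and HLA-B was again the only one of these 8. In polysomal RNA 0 of 8 passed in NT and in HU (0 at an unadjusted p of 0.05 and 0 in DESeq2 in both), against 0.0162% and 0.0653% of all genes. For TE, 0 of 8 passed in either treatment (0 at an unadjusted p of 0.05, 0 in DESeq2), against 0% of all genes in both (111 in NT and 487 in HU at an unadjusted p of 0.05, and 0 in DESeq2). The median log2 change of the 8 in total RNA was -0.01 in NT and 0.01 in HU. TAP1 is left out of these counts, since its place in the set came from the same contrasts.

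**Figure D3:**
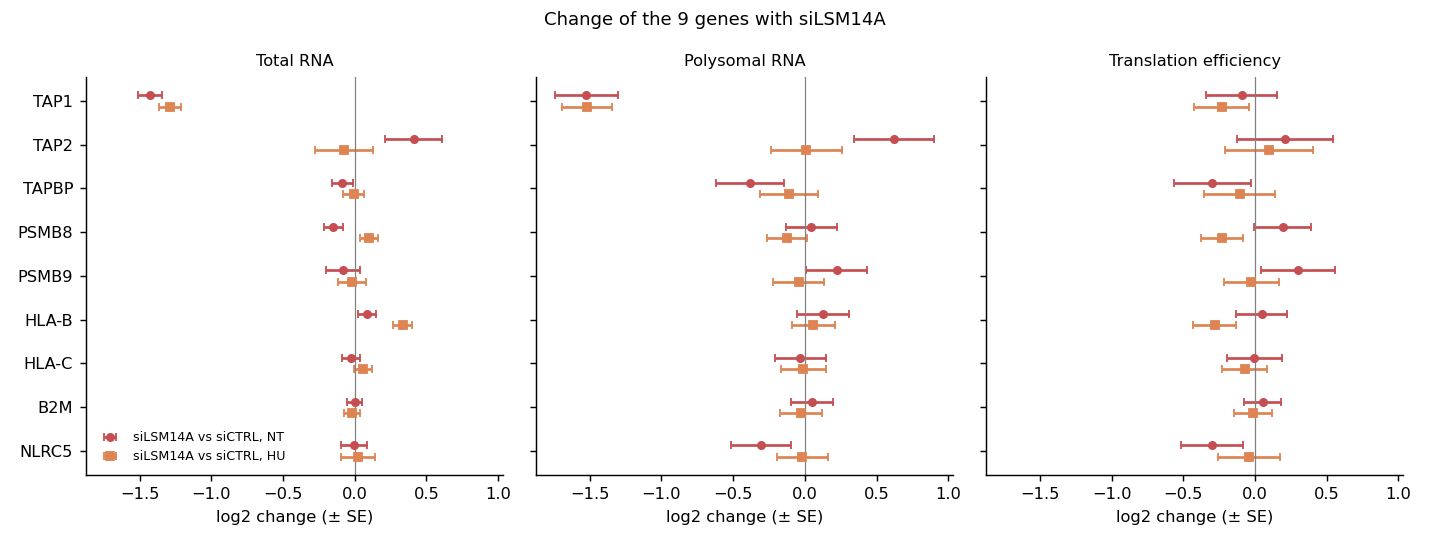
Log2 change with siLSM14A (x axes, points with SE) of the 9 genes in total RNA, polysomal RNA and TE, for NT (circles) and HU (squares). TAP1 lies between -1.52 and -1.29 in both RNA fractions and between -0.23 and -0.09 in TE. The other 8 genes lie between -0.38 and 0.62 in every panel.

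HU had no detected effect on any of the 9 genes. For TAP1 the log2 change with HU in total RNA was 0.05 ± 0.0683 (SE, edgeR, adjusted p = 0.9999) with siCTRL and 0.19 ± 0.0984 (edgeR, unadjusted p = 0.0752, adjusted p = 0.855) with siLSM14A, and the interaction was 0.14 (edgeR, unadjusted p = 0.235). In polysomal RNA it was 0.09 with either siRNA, and for TE 0.05 with siCTRL and -0.10 with siLSM14A. The siRNA and HU contrasts share libraries and are not independent of each other. In edgeR, 0 of the 9 genes passed in each of the 9 HU and interaction comparisons over total RNA, polysomal RNA and TE, and 0% of all genes did (107 to 650 genes at an unadjusted p of 0.05, and 1 gene in DESeq2, in total RNA with siCTRL). DESeq2 called 0 of the 9 in all of them. At an unadjusted p of 0.05 there was 1 member in total RNA with siLSM14A (PSMB8, 0.15 ± 0.0668) and 2 in the total RNA interaction (PSMB8 and HLA-B), with 0 in the other 7 comparisons.

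Levels compared per kb of exon, counted over all annotated transcripts, placed TAP1 in the middle of the set. In siCTRL NT total RNA, B2M stood highest at 191 ± 9.26 CPM per kb (SD, n = 3) and HLA-C next at 103 ± 4.51. PSMB8 (11.1 ± 0.625) and TAPBP (10.7 ± 0.579) did not differ beyond their spread. TAP1 (6.19 ± 0.251) and HLA-B (5.38 ± 0.151) followed, then PSMB9 (3.07 ± 0.326), NLRC5 (0.890 ± 0.0684) and TAP2 (0.170 ± 0.0332). With siLSM14A in NT, TAP1 stood at 2.30 CPM per kb, below PSMB9. The exon lengths are unions over all annotated transcripts, which sets genes low to unequal degrees. The union was 3121 bases for B2M, 3480 for PSMB8, 3338 for PSMB9 and 4623 for HLA-B. Their representative transcripts had 943, 1124, 1017 and 1536 bases. For TAP1 the union was 4738 bases against 2685, for TAP2 10357 against 5643 and for NLRC5 12386 against 6781. The order of TAP1, HLA-B and PSMB9 thus depends on the length used.

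Most members were rich on heavy polysomes. Averaged over the 12 cultures, the log2 ratio of polysomal to total RNA was 1.02 ± 0.0739 (SE) for TAP1 and 1.10 ± 0.0616 for PSMB8. It was 1.10 ± 0.0745 for PSMB9, 1.02 ± 0.0606 for HLA-B and 1.10 ± 0.0586 for HLA-C. Relative to the average mRNA, the level of these 5 in polysomal RNA was 2.03 to 2.14 times that in total RNA. These 5 ratios lay at percentiles 90.8 to 92.8 of all genes. NLRC5 (0.32 ± 0.0594) and TAPBP (0.20 ± 0.0885, edgeR, adjusted p = 0.0438) were slightly higher on polysomes, B2M was lower (-0.21 ± 0.0448, edgeR, adjusted p = 0.000271), and TAP2 was at 0.13 ± 0.103 (edgeR, adjusted p = 0.251). In all, 7 of the 9 were higher and 1 lower at an adjusted p of 0.05, where 40.2% of all genes were higher and 44.7% lower. A correction for GC content per library moved these ratios to 0.59 for TAP1, 0.93 for PSMB8, 1.16 for PSMB9, 0.56 for HLA-B and 0.34 for HLA-C, and turned the sign for TAPBP (-0.26), B2M (0.31) and NLRC5 (-0.24). TAP2 was at 0.43 with the correction (edgeR, adjusted p = 0.00108). The positive sign of TAP1, TAP2, PSMB8, PSMB9, HLA-B and HLA-C held under both scalings, with TAP2 past the threshold only after the correction.

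**Figure D4:**
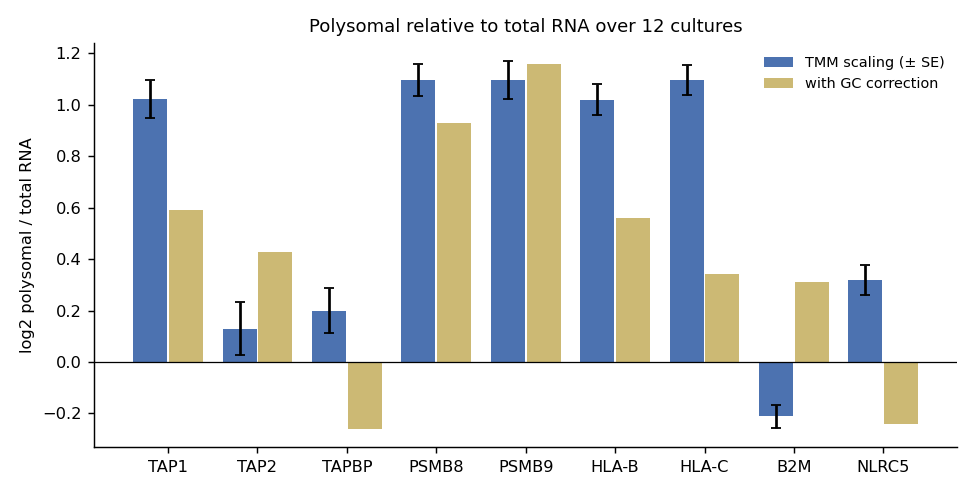
Log2 ratio of polysomal to total RNA (y axis, bars from 0) of the 9 genes averaged over 12 cultures, with the main scaling (with SE) and after a GC correction per library. TAP1, TAP2, PSMB8, PSMB9, HLA-B and HLA-C lie above 0 with both, and TAPBP, B2M and NLRC5 change sign.

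The rest of the pathway was followed through 37 further genes in 4 lists. None of the 35 that could be tested passed an adjusted p of 0.05 in total RNA of NT cells in edgeR (5 at an unadjusted p of 0.05, and 2 in DESeq2, ERAP1 and CIITA), and 2 of 35 passed in HU. Of all genes tested, 0.566% and 0.802% passed in NT and HU, and 10.8% were at an unadjusted p of 0.05 in NT. In HU, ERAP1, the aminopeptidase of the endoplasmic reticulum that trims peptides for class I, fell by 0.38 on the log2 scale (SE 0.0720, edgeR, adjusted p = 0.0291). Its total RNA was 41.0, 39.2 and 46.4 CPM in siCTRL HU and 32.7, 32.3 and 33 CPM in siLSM14A HU, and in NT 42.8, 40.4 and 46.1 CPM and 31.4, 33.7 and 38.1 CPM, with no overlap in either treatment. The NT change was -0.32 ± 0.0794 (edgeR, adjusted p = 0.134, and 0.0218 in DESeq2).

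CIITA, the class II counterpart of NLRC5 and a transactivator of class II genes, rose by 0.56 (SE 0.115, edgeR, adjusted p = 0.0474) in HU. It measured 10.4, 8.21 and 7.98 CPM in siCTRL HU and 13.2, 14.2 and 11.8 CPM in siLSM14A HU, and in NT 10.7, 8.23 and 7.60 CPM and 13.4, 12 and 12.5 CPM. The groups did not overlap in either treatment. The NT change was 0.52 ± 0.124 (edgeR, adjusted p = 0.127, and 0.0112 in DESeq2). Both calls in HU depended on single libraries, with adjusted p of 0.0275 to 0.153 for ERAP1 and 0.0086 to 0.257 for CIITA when 1 library was left out. ERAP1 passed without siCTRL HU replicate 1 or 2, CIITA without siCTRL HU replicate 1, and neither without any other. With the replicate block, 4 of the 37 passed in HU, ERAP2 and IFNGR1 beside these 2, where 6.85% of all genes passed.

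**Figure D5:**
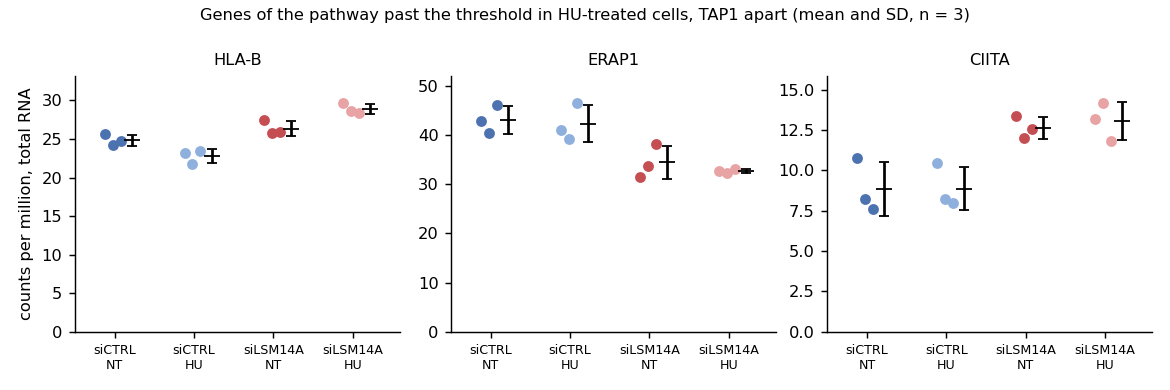
Total RNA in CPM (y axes, from 0) of HLA-B, ERAP1 and CIITA, with 1 point per library, the 4 conditions on the x axes, and bars for the mean and SD of 3 replicates. In HU the siLSM14A points of HLA-B (28.4 to 29.6) and CIITA (11.8 to 14.2) lie above, and those of ERAP1 (32.3 to 33) below, the siCTRL points.

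Of the further heavy chains, the log2 change in total RNA was -0.12 in NT and -0.08 in HU for HLA-E and -0.11 and -0.12 for HLA-F, and HLA-G was at 3 counts or fewer in each total RNA library. By list, the 6 genes of peptide loading and trimming (among them calreticulin and calnexin) had medians of -0.05 and -0.04, the 8 proteasome genes, including the immunoproteasome subunit PSMB10 (-0.02 and -0.19), -0.01 and 0.02, and the 18 testable regulators 0.03 and -0.01. RFX5, which binds class I and class II promoters, was at 0.01 ± 0.0483 and -0.02 ± 0.0542. Of the 9 interferon-stimulated genes, 0 passed in edgeR in either treatment (1 in NT, GBP1, and 2 in HU, IFIT1 and GBP1, at an unadjusted p of 0.05, and 1 and 0 in DESeq2), and their medians were 0.06 and 0.13. In polysomal RNA 0 of the 9 passed in edgeR (0 in NT and 4 in HU, IFIT1, IFIT3, GBP1 and GBP2, at an unadjusted p of 0.05, where 4.99% of all genes were in HU, and 0 and 1, GBP1, in DESeq2). For TE 0 passed (0 in NT and 3 in HU at an unadjusted p of 0.05, where 3.85% of all genes were in HU, and 0 in DESeq2). For all genes tested the median in total RNA was 0.00 in both treatments. In polysomal RNA and TE, and in the HU and interaction comparisons, none of the 37 passed in edgeR or DESeq2, with between 0 and 2 of them at an unadjusted p of 0.05 in a comparison.

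Beside these, the 8 melanocyte markers had medians of 0.00 in NT and 0.08 in HU, with 0 passing in edgeR (0 and 1 at an unadjusted p of 0.05, 0 and 1 in DESeq2, DCT). The dedifferentiation markers AXL and NGFR were at 0.14 and 0.32 in NT and 0.20 and 0.28 in HU. CD74 was at 0.20 and 0.29 and CD14 at -0.22 and -0.52, and 4 of the 6 leukocyte markers were too low to test. None of these passed in edgeR (1 and 2 of the dedifferentiation markers at an unadjusted p of 0.05, 1 and 1 in DESeq2, and for the leukocyte markers 0 and 1, and 0 and 1). Of all genes tested, 0.566% in NT and 0.802% in HU passed in edgeR, and 1.98% and 1.61% in DESeq2. At an unadjusted p of 0.05 in edgeR the shares were 10.8% and 8.54%.

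The genes whose total RNA most resembled that of TAP1 were no members of the pathway. Over the 12 total RNA libraries and 12666 genes, Pearson's r of log2 CPM with TAP1 was highest for BRI3BP (0.987), TSKU (0.985), PACC1 (0.985), LSM14A itself (0.985) and POLR2C (0.984), given as a description, since the libraries share the siRNA contrast for which TAP1 was chosen. Within conditions, after the condition means were removed, r was -0.28 for POLR2C, 0.15 for LSM14A, 0.18 for PACC1, 0.28 for BRI3BP and 0.40 for TSKU. Their log2 changes with siLSM14A were -1.09 in NT and -1.07 in HU for BRI3BP, -0.56 and -0.48 for TSKU, a secreted leucine-rich repeat protein, -0.98 and -0.82 for PACC1, a proton-activated chloride channel, and -0.77 and -0.72 for POLR2C, a subunit of RNA polymerase II. Among the other 8 members r ran from -0.79 (HLA-B) to 0.29 (TAPBP), and within conditions it was highest for B2M (0.42) and HLA-C (0.36).

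An earlier look at these libraries had picked out the 7-base word AACGGAG as frequent in 3' UTRs of genes that were lower with siLSM14A, so what follows describes that choice and is no independent evidence. The 3' UTR of TAP1 held the word once, in all 5 of its coding transcripts. The transcripts of the other 8 members held it 0 times. All 5 of the genes most like TAP1 held it, in the 3' UTR of BRI3BP (chr12:125510032-125510038, hg19), TSKU (chr11:76508911-76508917), PACC1 (chr1:212538485-212538491, minus strand) and POLR2C (chr16:57505056-57505062) and in the coding part of LSM14A (chr19:34712414-34712420). Of all genes tested, 8.63% in NT and 8.62% in HU held it anywhere in the representative transcript. Only 3 of the 5 coding transcripts of TSKU and 3 of the 4 of LSM14A held it. The windows of 29 bases around the sites in these 5 genes are shown with the word in capitals, for comparison with the site in the targeted gene.
LSM14A: tgacaatagagAACGGAGaccaacctggg
BRI3BP: cagaaaacgaaAACGGAGgaaaaaaaccc
TSKU: gttgcctttttAACGGAGtgtcactttca
PACC1: tccactttgtaAACGGAGctatcaacaat
POLR2C: gcttcagcaaaAACGGAGattcaggccag
Of the genes tested in NT, 264 (2.11%) held the word in the 3' UTR, and 21 of them (7.95%) were called lower, against 28 of 12245 genes (0.229%) without it. In HU 23 of 262 (8.78%) were lower and 3 higher, against 47 of 12180 (0.386%) lower and 27 higher without it. Called higher in NT were 0 of the holders and 22 of the genes without the word. The median log2 change of the holders was -0.06 in both, so that most of them moved little. As background, an siRNA can lower mRNAs other than its target when the seed at its 5' end pairs with a short word in their 3' UTR. No sequence of the siRNA or siRNAs is given in the sources used here, and whether this word or the loss of LSM14A itself set the level of TAP1 was not tested.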

How the data were processed

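Total poly(A) RNA and heavy polysomal RNA of 12 cultures (A2058 per the labels, 4 conditions, 3 replicates) were sequenced from a stranded mRNA kit. The authors aligned the reads with STAR 2.6.1a to hg19 (per the labels' processing notes) and deposited raw counts per Ensembl gene, counted on GENCODE per the study's methods. The strand setting of the counting is not given in the sources used here. Gene types, symbols and coordinates were taken from a GENCODE annotation lifted to hg19, which may differ from the authors' release.

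From the deposited counts, protein-coding genes with a count minimum of 10 (total minimum 15, filterByExpr by group) were tested by edgeR 4.0.16 (TMM, glmQLFit and glmQLFTest) in R 4.3.3 with limma 3.58.1, on the libraries of the conditions compared, with Benjamini-Hochberg adjustment over all genes tested and a threshold of 0.05. TE was the interaction of fraction and condition, and polysomal against total RNA was fitted with culture as a block. CPM use TMM library sizes, log2 CPM a prior count of 2, and per-culture log2 TE a pseudocount of 0.5 counts. DESeq2 1.42.0, other scaling, no filter, all genes, all conditions in one fit, a replicate block, a loess GC correction (span 0.3) and leaving out each culture were the alternatives. The steps were tested for the NT comparison on simulated counts with known changes, drawn from the levels and spread of these libraries. At a log2 change of 1, 100 of 100 changed genes were recovered in total RNA, 67 in polysomal RNA and 52 for TE. At a log2 change of 2 it was 100, 100 and 96 of 100. Among the genes left unchanged in these data, 17 were called in total RNA, 16 in polysomal RNA and 4 for TE. Only genes with a mean over 100 counts were changed, so recovery at counts as low as those of TAP2 is not known. Sequence tables were read in Python 3.11.15.

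Libraries held 24789280 to 44897501 counts, which gave TAP1 332 to 1307 counts per total RNA library. The members and all lists were chosen with earlier results of these data known. The text names all 9 members, pathway genes past the threshold or compared with a member, genes within 150 kb of TAP1, the 5 genes most correlated with TAP1, and LSM14A. The labels give each replicate a number but not what it shares. Same-numbered libraries deviated together (r over 0.1 for all 3 numbers) in total RNA for siLSM14A against siCTRL in HU (0.293, 0.162 and 0.195) and for HU with siCTRL (0.241, 0.197 and 0.168), and in polysomal RNA for HU with siCTRL (0.203, 0.135 and 0.394), and not in the other comparisons. Some genes and sequences are not reported here.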

Additional observations from a re-analysis of the deposited data

How the results depend on the processing

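Of the 2070 values that other settings gave for the log2 changes of the 9 genes, 202 had the other sign than the value reported, none of them past the threshold, and 30 moved by over 1 SD of the replicates. TAP1 with siLSM14A kept its sign in both RNA fractions under all of them. Leaving out 1 culture in turn gave -1.51 to -1.37 in NT and -1.32 to -1.24 in HU for total RNA, -1.69 to -1.39 and -1.71 to -1.42 for polysomal RNA, and -0.28 to 0.08 and -0.42 to -0.12 for TE. The count of members other than TAP1 past the threshold in total RNA of HU cells, 1 (HLA-B), went to 0 without any 1 culture (0 to 0). With the replicate block, that comparison called 855 genes (403 higher, 452 lower) in place of 100, NT called 45 in place of 71, HU with siCTRL called 15 in place of 0, and polysomal RNA called 40 in place of 8 in HU and 1 in place of 0 for HU with siCTRL. HLA-B kept its call with the block (adjusted p = 3.92e-05), and no other call of a member changed. GC correction of the polysomal over total ratio gave 2 members lower in place of 1, with the sign turned for TAPBP (-0.26), B2M (0.31) and NLRC5 (-0.24). DESeq2 called 200 genes in NT and 189 in HU in total RNA and 8 and 22 in polysomal RNA. The alternatives for ERAP1, CIITA and the counts of the 37 further pathway genes were chosen after seeing the data: ERAP1 had an adjusted p of 4.02e-07 to 0.0284 and CIITA of 1.92e-06 to 0.0478 in HU with all libraries kept. The cause of these differences was not tested. Fewer known changes were recovered in polysomal RNA and for TE than in total RNA, so smaller changes on polysomes and in TE were less detectable.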
